A study of Homo sapiens with 28 samples.

Results

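The comparison asked where the RNA response to RUVBL1 knockdown differed between H596 and H2009, 2 human non-small cell lung cancer lines that the labels call adenocarcinoma and wild type. It used 8 of the 28 samples of the series. H596 cells carried an siRNA against RUVBL1 or a non-targeting siRNA for 3 days, and H2009 cells carried the same kinds of siRNA for 2.5 days, with 2 libraries in each of the 4 groups. All 8 samples were reverse transfected, and RNA was taken by lysis on the plate. The lines therefore differ in the length of the knockdown too, and line and time cannot be told apart. Each line has its own table of FPKM (fragments per transcript length and sequencing depth), so levels were not compared between the siRNA tables. For each gene and replicate number the effect of the siRNA was log2(FPKM + 1) with the RUVBL1 siRNA minus log2(FPKM + 1) with the non-targeting siRNA. The difference is the mean effect in H596 minus the mean effect in H2009. Of 10963 genes in both tables, 10323 had a mean of at least 1 FPKM in each table and were tested with limma, while 640 fell under that level. A further 1421 genes were listed in the H596 table alone and 1105 in the H2009 table alone. On the log2(FPKM + 1) scale the change of genes with low FPKM is understated.

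RUVBL1 and RUVBL2 are AAA+ ATPases that assemble into rings. In the PAQosome (also called R2TP with its prefoldin-like partners) they help to mature box C/D snoRNPs, RNA polymerases, the U5 snRNP and the PIKK kinases, and they are also subunits of the TIP60, SRCAP and INO80 chromatin remodellers. Loss of either protein is known to slow proliferation, which is why genes of DNA replication, mitosis and nucleotide supply are among those described here.

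RUVBL1 itself was low after the siRNA in both lines. In H596 it was 2.26 and 2.52 FPKM with the RUVBL1 siRNA and 112 and 123 FPKM with the non-targeting siRNA. In H2009 the values were 1.75 and 1.11 against 87.8 and 64.3 FPKM. The effects were -5.11 and -5.14 in H596 and -5.01 and -4.95 in H2009, and the difference of -0.14 (SE 0.09, n = 2 effects per line, 95% interval -0.36 to 0.07) did not pass (limma adjusted p = 0.253). The call depended on the pseudocount: with 5 the difference was -0.41 and passed (adjusted p = 0.0429), and with 0.1 its sign turned, to 0.09 (adjusted p = 0.538). RUVBL2, the partner ATPase, had effects of -0.24 and -0.23 in H596 and 0.23 and -0.09 in H2009, a difference of -0.30 (SE 0.12, adjusted p = 0.125), which passed with centred effects (-0.36, adjusted p = 0.0355) and without H2009 replicate 2 (-0.46, adjusted p = 0.000441).

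The 2 lines kept separate lineage markers. All 9 epithelial markers were listed in both lines. In untreated cells of the compound experiment, which measured both lines in 1 table, NKX2-1, the lung lineage factor, was at 1.04 and 0.43 FPKM in H596 and at 106 and 60.8 FPKM in H2009. The squamous factor TP63 was at 88.3 and 77.5 FPKM in H596 and at 0.13 and 0.24 FPKM in H2009, and the basal keratin KRT5 was at 1452 and 1212 against 0.19 and 0.81 FPKM. SCGB1A1, a club cell marker of the lung lineage list, went the other way, at 104 and 30.4 FPKM in H596 and at 0.15 FPKM and listed at 0 in H2009. SFTA3, of the same list, was at 0.18 and 0.03 FPKM in H596 and at 56.3 and 65.6 FPKM in H2009. H596, labelled adenocarcinoma, thus had little NKX2-1 and SFTA3 but more SCGB1A1 than H2009, beside abundant TP63 and KRT5. Of the markers of other cell types, 4 of 7 fibroblast genes, 1 of 8 immune genes and 1 of 5 endothelial genes were listed in the H596 siRNA table, with summed levels of at most 11.3, 22.8 and 1.57 FPKM in any library, and 1, 1 and 0 were listed in that of H2009.

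The effects were larger in H2009. The SD of the effects over all tested genes was 0.455 in H2009 and 0.224 in H596, and 371 genes had a mean effect of at least 1 in either direction in H2009, 16 in H596 and 9 in both. Across genes, which are not independent replicates, the mean effects of the lines correlated with Pearson's r = 0.449 and the replicates within a line with r = 0.860 in H596 and 0.850 in H2009. In the test of the difference, the H596 effect lay above that of H2009 for 1797 genes, 17.4% of those tested, and below it for 1078 genes, 10.4%. Of the 1797 genes, 883 had lower values after the siRNA in both replicates of both lines, and 639 were up in both replicates of H596 and down in both of H2009. Of the 1078 genes, 466 were up in both lines and 400 were down in H596 and up in H2009. No gene reached 0.58 up in both replicates of one line and 0.58 down in both of the other.

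These counts depend on pairing by replicate number, a number whose meaning the labels do not give. Nothing in them says that replicates were separate cultures, so a p-value reflects the spread between libraries, which may be technical. Without a replicate block limma called 0 genes (189 at an unadjusted p under 0.05, smallest adjusted p 0.9996), and with 1 block shared by both lines it also called 0 (1970 unadjusted). Leaving out H596 replicate 1 or 2, so that the spread came from H2009 alone, left 131 and 79 higher and 46 and 24 lower, while leaving out H2009 replicate 1 or 2 gave 4143 and 2895 higher and 2088 and 3134 lower. The share of calls that were higher was 62.5%, but 51.1% with each effect centred on its median and 48.2% after quantile normalization, and the median effect over all genes was -0.145 in H2009 replicate 2 and between -0.0249 and -0.0166 in the other 3. Calls within H596 rose from 267 and 520 to 1972 higher and 3115 lower when each line had its own estimate of the spread. Those within H2009 dropped from 2172 and 3602 to 1549 higher and 2780 lower. The line with more calls was thus H2009 with a shared spread and H596 with separate ones. The counts of list members below carry the same dependence: no member of any list passed without the replicate block, and in the lists for which no other count is given at most 2 members passed in a direction without H596 replicate 1 or 2.

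**Figure D1:**
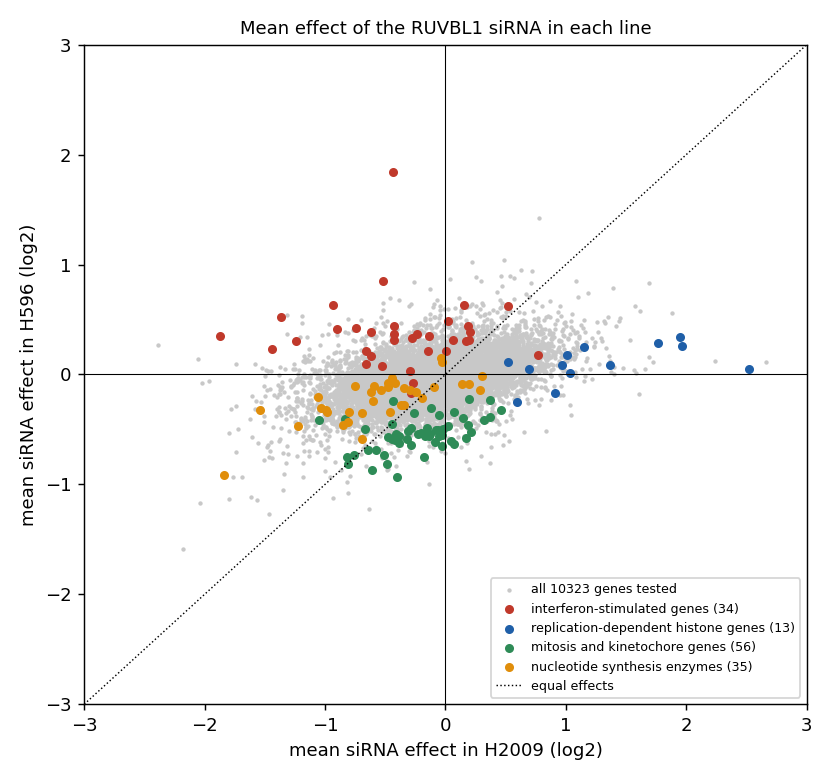
Mean siRNA effect (log2) of each of the 10323 tested genes in H2009 (horizontal) and H596 (vertical), with 4 gene lists in colour; 3 genes lie beyond the plotted range of 3. The interferon-stimulated genes (red) lie mostly above the dotted line of equal effects, and all 13 histone genes (blue) and most mitosis genes (green) lie below it.

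Interferon-stimulated genes formed the list with the most members whose effect was higher in H596. These genes are switched on by type I and type III interferons through the ISGF3 transcription factor complex, which binds the interferon-stimulated response element. Because this list held the most genes with a higher effect in H596, the promoters of 6 members are shown. They had the highest differences among passing members with a match to the motif marked below, before the gene start. A match was thus a condition, and members without one, such as HERC6, or without an entry, such as USP18, were passed over. Each promoter is given as 60 bases upstream of the gene start on the gene's own strand, from RefSeq (GRCh38.p14). The capitals mark matches to GAAANNGAAA or its reverse complement, the core of that element. The windows are chr1:27672314-27672373 (minus strand, IFI6), chr1:78649729-78649788 (plus strand, IFI44), chr10:89392482-89392541 (plus strand, IFIT1), chr10:89327816-89327875 (plus strand, IFIT3), chr4:168318806-168318865 (minus strand, DDX60) and chr19:17405726-17405785 (minus strand, BST2).
IFI6: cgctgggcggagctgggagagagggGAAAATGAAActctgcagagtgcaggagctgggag
IFI44: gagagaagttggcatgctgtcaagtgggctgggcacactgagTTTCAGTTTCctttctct
IFIT1: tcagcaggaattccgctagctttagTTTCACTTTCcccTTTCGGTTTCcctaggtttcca
IFIT3: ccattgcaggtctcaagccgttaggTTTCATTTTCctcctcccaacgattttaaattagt
DDX60: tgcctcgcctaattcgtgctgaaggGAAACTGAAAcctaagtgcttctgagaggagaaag
BST2: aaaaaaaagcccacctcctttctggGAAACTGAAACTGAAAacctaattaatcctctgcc

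In windows from 250 bases before to 50 bases after the gene start, searched on both strands and for no other motif, GAAANNGAAA was in 1255 of all 35116 RefSeq promoters (3.57%). It was in 21 of the 29 tested interferon-stimulated genes with an entry (72.4%), in 14 of 18 whose effect was higher in H596 (77.8%) and in 6 of 10 that did not pass (60%). The element was thus common in the list whether or not a member passed. Among the members without an entry were USP18, IFIT2, DDX58 and IFITM2. A match describes these letters only.

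Of 53 interferon-stimulated genes, 34 were tested, 5 were under 1 FPKM in a table, 13 were in the H596 table alone and 1 in the H2009 table alone. Of the 34, 21 had a higher effect in H596 (61.8%, beside 17.4% of all genes), 1 a lower one (2.94%, beside 10.4%) and 12 did not pass. The median difference was 0.61 beside 0.05 over all tested genes. The list's median effect was 0.42 and 0.29 in the H596 replicates and -0.31 and -0.49 in the H2009 replicates. Taken line by line, 15 of the 34 rose in H596 (background 2.59% of genes) and 0 fell (5.04%), while 4 rose in H2009 (background 21%) and 20 fell (34.9%). For 30 of the 34, both H596 effects lay above both H2009 effects (40% of all genes), and for 1 both lay below (30.4%). Without H596 replicate 1 or 2 the count of higher members was 9 in either case.

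IFI6, an interferon-induced mitochondrial protein that restrains apoptosis, had the highest difference of the list. In H596 it was 453 and 169 FPKM with the RUVBL1 siRNA and 119 and 48.8 FPKM with the non-targeting siRNA. In H2009 it was 5.50 and 1.43 against 7.51 and 2.39 FPKM. IFI6 rose in H596, with effects of 1.92 and 1.77 on the log2 scale, and fell in H2009, with effects of -0.39 and -0.48, a difference of 2.28 (SE 0.10, limma adjusted p = 0.00569), and the sets of effects did not overlap.

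IFI44, an interferon-induced cytoplasmic protein, was 99.7 and 120.02 FPKM with the RUVBL1 siRNA and 77.4 and 95.3 FPKM without in H596. In H2009 it was 9.95 and 15.99 against 36.7 and 65.6 FPKM. It rose in H596 by 0.36 and 0.33 and fell in H2009 (effects -1.78 and -1.97) (difference 2.22, SE 0.10, adjusted p = 0.00569). In contrast to IFI6, most of its difference came from H2009.

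The IFIT proteins bind foreign RNA and share sequence, so reads could be split between them. IFIT1 was 48.1 and 40.04 FPKM with the RUVBL1 siRNA and 28.6 and 32.1 FPKM without in H596, and 0.81 and 0.85 against 3.14 and 4.38 FPKM in H2009, a difference of 1.89 (SE 0.19, adjusted p = 0.00746). IFIT3 was 63.1 and 65.9 against 46.0 and 65.3 FPKM in H596 and 4.59 and 5.02 against 12.6 and 17.2 FPKM in H2009, a difference of 1.67 (SE 0.18, adjusted p = 0.00762). For both genes every H2009 effect was below every H596 effect, although the second H596 effect of IFIT3 was only 0.01. The ISG15 protease USP18 (1.56), the RNA helicase DDX60 (1.55), the ubiquitin ligase HERC6 (1.37), the tetherin gene BST2 (1.17), the RNA-sensing kinase EIF2AK2 (1.00), the RNA sensor IFIH1 (0.87) and the peptide transporter TAP1 (0.80) also had higher differences that passed.

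The differences of STAT2 (0.33) and IRF9 (0.11), which encode subunits of ISGF3, did not pass (limma). ISG15, the ubiquitin-like modifier, had effects of 0.42 and 0.00 in H596 and did not pass either (difference 0.36). DDX60L, a relative of DDX60, went the other way, with mean effects of 0.18 in H596 and 0.77 in H2009 (difference -0.59, adjusted p = 0.0249).

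The 13 members in the H596 table alone have no difference. Of these, IFI27 was 172 and 68.7 FPKM with the RUVBL1 siRNA against 37.2 and 12.4 FPKM, and MX1, the dynamin-like antiviral GTPase, was 159.7 and 106 against 69.9 and 58.8 FPKM. OAS1, which makes the activator of RNase L, was 113 and 63.5 against 61.7 and 32.4 FPKM. PARP10, another of the 13, had effects of 0.17 and -0.14 in H596. Without an H2009 value, none of the 13 bears on the difference between the lines.

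**Figure D2:**
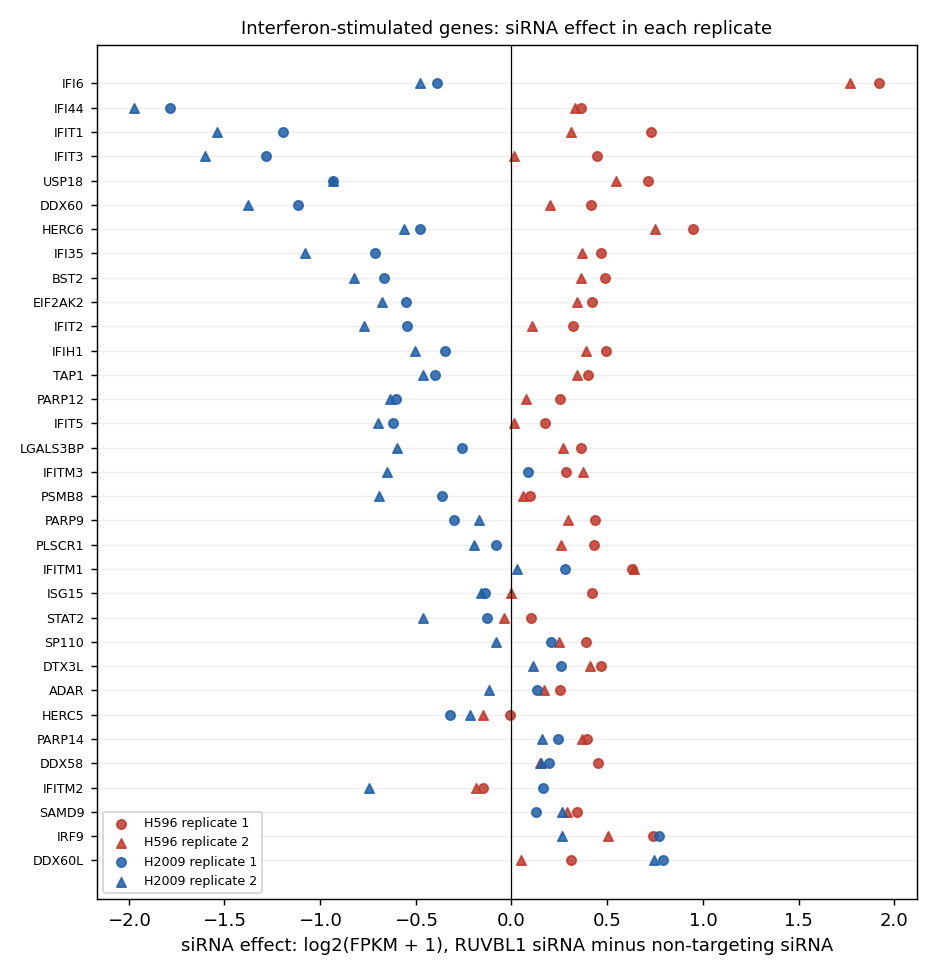
siRNA effect (log2) in each replicate for 33 of the 34 tested interferon-stimulated genes, ordered by difference, with H596 in red and H2009 in blue. From IFI6 down to LGALS3BP the red and blue points lie on opposite sides of 0, and at the bottom DDX60L has both blue points to the right.

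Upstream in the interferon pathway, of 17 tested genes for ligands, receptors and signalling, 3 had a higher effect in H596 (17.6%, beside 17.4% of all genes) and 0 a lower one, a share near the background. IRF2, a repressor and activator of interferon-responsive promoters, was 9.31 and 8.24 against 8.46 and 7.96 FPKM in H596 and 4.31 and 4.30 against 7.24 and 8.66 FPKM in H2009 (difference 0.83, SE 0.12, limma adjusted p = 0.0106). The kinase gene IKBKE had a difference of 0.69 (adjusted p = 0.0147). IFNGR1, a subunit of the receptor for interferon gamma, rose in H596 (mean effect 0.59) with a mean effect of 0.02 in H2009 (difference 0.57, adjusted p = 0.0171). Of 40 NF-kappa B chemokine, cytokine and feedback genes only 15 could be tested, and 2 were higher and 1 lower (13.3% and 6.67%, below the 17.4% and 10.4% of all genes). NFKBIA, which encodes the inhibitor I kappa B alpha, rose by 0.55 and 0.55 in H596 and had effects of -0.01 and -0.26 in H2009 (difference 0.68, adjusted p = 0.0143), and the superoxide dismutase gene SOD2 had a difference of 0.77 (adjusted p = 0.00761). IER3, an early response gene, was the lower one at -0.91 (adjusted p = 0.00717). The chemokine gene CCL20, listed in the H596 table alone, was 28.7 and 41.6 FPKM with the RUVBL1 siRNA against 6.97 and 10.6 FPKM. CXCL8, under 1 FPKM in H2009, had effects of 1.62 and 1.68 in H596 and 0.10 and 0.04 in H2009 and was not tested.

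Histone genes went the opposite way. Replication-dependent histone genes supply the histones of new chromatin in S phase, and their usual transcripts end in a stem-loop without a poly(A) tail. The libraries were made with a kit that selects poly(A) RNA, so these values do not stand for the whole histone mRNA, and near-identical copies can share reads. Of 64 listed genes, 13 were tested, 6 were under 1 FPKM in a table, 21 were in the H596 table alone, 5 in the H2009 table alone and 19 in neither. Of the 13, 12 had a lower effect in H596 (92.3%, beside 10.4% of all genes) and 0 a higher one, with a median difference of -1.02. The count and the size depended on the pseudocount. With 5, 7 of the 13 were lower and the median was -0.52, beside 1038 lower of all 10323 genes. With 0.1, all 13 were lower and the median was -1.58, beside 1024 lower of all genes. All 13 rose in H2009 (background 21%), while in H596 0 rose and 0 fell. The H596 test shares its spread with H2009, where replicates differed more, and the list's median effect in H596 was 0.26 and 0.01. The threshold of 1 FPKM used the mean over both siRNAs, so a gene low in the controls could enter by rising in H2009. This can favour members that rise there. With the threshold left out, 14 of 19 members were lower and 0 higher, with a median difference of -0.88. Over all 10963 genes, 1091 were then lower. Both H596 effects were below both H2009 effects for 13 of 13 (30.4% of all genes). Without H596 replicate 1 or 2, 5 and 3 members passed.

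HIST1H2BD, an H2B gene, was 175 and 134 FPKM with the RUVBL1 siRNA and 157 and 139 FPKM without in H596. In H2009 it was 33.6 and 29.6 against 5.92 and 3.62 FPKM, effects of 2.32 and 2.73. Its difference of -2.48 (SE 0.16, limma adjusted p = 0.00663) was the lowest among the genes ranked here, and the H596 effects of 0.16 and -0.06 lay on both sides of 0. HIST1H2BK was 640.1 and 485 against 534 and 407 FPKM in H596 and 386 and 161 against 88.1 and 45.3 FPKM in H2009 (difference -1.71, SE 0.13, adjusted p = 0.00699). HIST1H2BJ had effects of 0.30 and 0.28 in H596 and 1.72 and 1.81 in H2009 (difference -1.48, adjusted p = 0.00663). The linker histone gene HIST1H1C, at 600.4 and 315 against 579 and 289 FPKM in H596, was 13.6 and 3.72 against 3.10 and 1.51 FPKM in H2009 (difference -1.28, SE 0.29, adjusted p = 0.0295). In untreated cells all 13 genes were higher in H596 than in H2009 in both libraries, for HIST1H2BD 159.5 and 113 against 9.07 and 8.03 FPKM. The same held for 19 of 34 interferon-stimulated genes and 15 of 56 mitosis genes, and the share over all genes is not given here. The part of the starting level of the histone genes in their difference was not tested.

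Many mitosis genes had a lower effect in H596. All 56 genes of the mitosis and kinetochore list were tested, and 25 had a lower effect in H596 (44.6%, beside 10.4% of all genes), 1 a higher one (1.79%, beside 17.4%) and 30 did not pass. The median difference was -0.35, and the median effect was -0.52 and -0.56 in the H596 replicates and -0.10 and -0.27 in those of H2009. In H596, 44 of 56 fell and 0 rose (background 5.04% and 2.59%). In H2009, 24 fell and 6 rose (34.9% and 21%). For 42 of the 56 both H596 effects lay below both H2009 effects (30.4% of all genes) and for 3 above (40%). Without H596 replicate 1, or without replicate 2, no member passed the test of the difference, though the list's median stayed at -0.36 and -0.37.

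CENPF, a large kinetochore protein, was 29.3 and 67.7 FPKM with the RUVBL1 siRNA and 37.8 and 90.1 FPKM without in H596, and 66.6 and 119 against 50.02 and 93.9 FPKM in H2009. It fell in H596 (effects -0.36 and -0.41) and rose in H2009 by 0.41 and 0.33 (difference -0.75, SE 0.08, limma adjusted p = 0.00779). CDCA5, the cohesin regulator sororin, had effects of -0.40 and -0.25 in H596 and rose by 0.60 and 0.32 in H2009 (difference -0.78, SE 0.13, adjusted p = 0.0137). The checkpoint kinase TTK (-0.73), the phosphatase CDC25C (-0.75), the mitotic kinase AURKB (-0.65) and the ubiquitin-conjugating enzyme UBE2C (-0.58) also had lower differences. PLK1, another mitotic kinase, fell in both lines, with mean effects of -0.86 in H596 and -0.61 in H2009, and its difference of -0.25 did not pass (adjusted p = 0.0906). The member that went the other way was MYBL2, a transcription factor of the cell cycle, with mean effects of -0.41 in H596 and -1.05 in H2009 (difference 0.64, adjusted p = 0.0288).

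DNA replication genes held members in both directions. Of 54 origin and fork genes, all tested, 19 had a higher effect in H596 (35.2%, beside 17.4% of all genes), 7 a lower one (13.0%, near the 10.4% of all genes) and 28 did not pass, with a median difference of 0.21. In H2009, 32 of the 54 fell and 6 rose (34.9% and 21% of all genes), and in H596, 5 fell and 0 rose (5.04% and 2.59%). CDC45, a subunit of the replicative helicase, was 17.6 and 16.3 against 21.6 and 19.1 FPKM in H596 and 22.9 and 14.6 against 51.5 and 38.9 FPKM in H2009 (difference 1.00, SE 0.11, limma adjusted p = 0.00761). The histone chaperone gene CHAF1B (0.95), the helicase subunits MCM7 (0.87) and MCM3 (0.79), the sliding clamp PCNA (0.86) and the ligase LIG1 (0.73) were among the higher ones. MCM3 had effects of 0.15 and 0.18 in H596 and fell in H2009 (effects -0.47 and -0.78). The lower ones included ORC3 (-0.60), the licensing factor CDT1 (-0.56) and the histone chaperone ASF1B (-0.56). Without H596 replicate 1, 1 member was higher, and without replicate 2, 0 were (limma); the list's median difference was 0.21 and 0.22.

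Nucleotide synthesis enzymes had 13 of 35 members with a higher effect in H596 (37.1%, beside 17.4% of all genes) and 0 with a lower one (beside 10.4%), and 22 did not pass. Their median difference was 0.36, and 27 of the 35 fell in H2009 (34.9% of all genes) and 9 in H596 (5.04%). CTPS1, which makes CTP, was 31.5 and 31.7 against 40.2 and 39.5 FPKM in H596, and 11.9 and 6.84 against 36.4 and 21.9 FPKM in H2009. It fell in both lines, with effects of -0.34 and -0.31 in H596 and of -1.54 and -1.54 in H2009 (difference 1.22, SE 0.08, limma adjusted p = 0.00663). RRM2, the regulated subunit of ribonucleotide reductase, was 53.4 and 58.3 against 102.6 and 110.1 FPKM in H596 and 29.4 and 13.8 against 112 and 49.9 FPKM in H2009, a fall in both lines that was larger in H2009 (difference 0.92, SE 0.09, adjusted p = 0.00738). Thymidylate synthase TYMS (0.73), the purine enzyme PAICS (0.75), the folate enzymes SHMT1 (0.85) and MTHFD1 (0.66) and the pyrimidine enzyme CAD (0.65) had the same direction. Centred effects gave 16 higher and 1 lower, quantile normalization 14 and 2, and leaving out either H596 replicate left 1 higher.

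**Figure D3:**
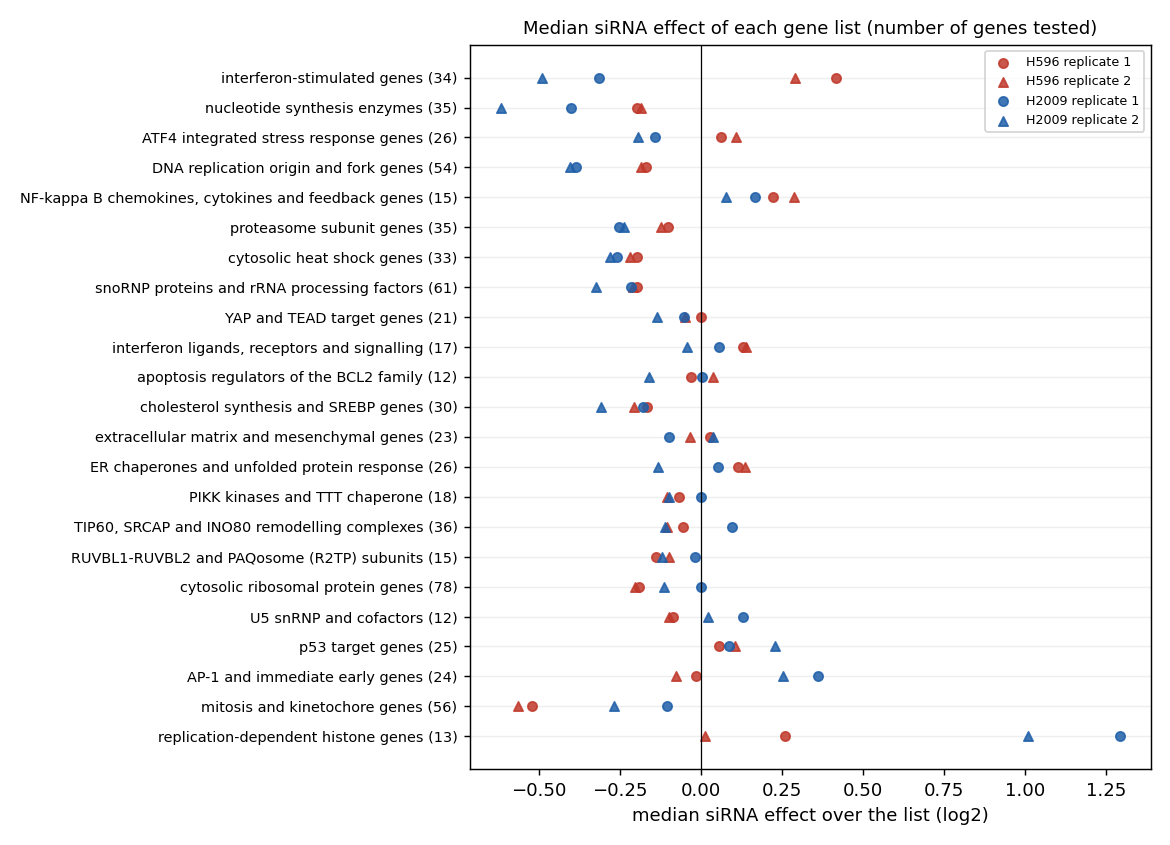
Median siRNA effect (log2) over the tested members of each of the 23 gene lists in each replicate, H596 in red and H2009 in blue, ordered by median difference. Interferon-stimulated genes lie at the top with 0.42 and 0.29 in H596 against -0.31 and -0.49 in H2009, and histone genes at the bottom with 0.26 and 0.01 against 1.29 and 1.01.

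In each list of the RUVBL1-RUVBL2 assemblies, the share of genes with a higher effect in H596 was below that of all genes. Of 15 tested PAQosome genes, 1 had a higher and 2 a lower effect in H596, of 18 PIKK and TTT genes 2 and 2, of 36 genes of the TIP60, SRCAP and INO80 remodeller list 3 and 6, of 12 U5 snRNP genes 0 and 2, and of 61 snoRNP and rRNA processing genes 9 and 2. The remodeller list also holds H2A variant genes, and H2AFX is among its 6 lower members. Against the background of 17.4% higher and 10.4% lower over all tested genes, the snoRNP and rRNA processing list stood at 14.8% and 3.28%, and the remodellers at 8.33% and 16.7%. The PAQosome list stood at 6.67% and 13.3%, the PIKK and TTT list at 11.1% each, and the U5 list at 0% and 16.7%. Quantile normalization gave 2 and 11 for the remodellers and 8 and 7 for the snoRNP list, with 1953 lower over all genes. Centred effects gave 0 and 5 for U5, with 1808 lower over all genes. PIH1D1, the adaptor of R2TP that binds client proteins, was 52.4 and 41.1 against 68.7 and 53.4 FPKM in H596 and 29.9 and 24.5 against 54.5 and 65.0 FPKM in H2009. It fell in H2009 (effects -0.85 and -1.37) and had effects of -0.39 and -0.37 in H596 (difference 0.73, SE 0.18, limma adjusted p = 0.035). PDRG1, a prefoldin-like subunit, rose in H2009 by 0.73 and 0.65 and had effects of 0.03 and 0.02 in H596 (difference -0.67, SE 0.08, adjusted p = 0.00947).

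Among further members of these lists, H2AFX, the histone variant phosphorylated at DNA breaks, was 65.1 and 31.5 against 105 and 59.7 FPKM in H596 and 35.5 and 8.41 against 30.0 and 7.74 FPKM in H2009. It fell in H596 (effects -0.68 and -0.90), with effects of 0.24 and 0.11 in H2009 (difference -0.96, SE 0.11, limma adjusted p = 0.0082). YEATS4, a subunit shared by TIP60 and SRCAP that reads acetylated histones, fell in H2009 (effects -1.06 and -0.92) with effects of -0.14 and -0.06 in H596 (difference 0.90, adjusted p = 0.00761). ING3, another TIP60 subunit, had a difference of 0.61 (adjusted p = 0.0258). The U5 protein PRPF6 (-0.63) and the U5 assembly factor AAR2 (-0.66) rose in H2009 and had effects near 0 in H596, from -0.15 to 0.00. The snoRNP assembly factor ZNHIT3 also rose in H2009 (difference -0.63), while UTP6 of the small-subunit processome fell there (effects -1.04 and -0.73) against effects of -0.24 and -0.31 in H596 (difference 0.61, adjusted p = 0.0224). Within the PIKK list, the mTOR complex subunits MLST8 (0.44) and RICTOR (-0.42) differed in opposite directions, and SMG9 of the nonsense-mediated decay kinase complex was higher (0.52). With a pseudocount of 0.1 or 5, at 5 FPKM or without a variance trend, 0 members of this list were higher, so neither MLST8 nor SMG9 passed there.

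Stress genes split within their lists. Of 26 tested genes of the ATF4 integrated stress response, 11 had a higher and 6 a lower effect in H596 (42.3% and 23.1%, beside 17.4% and 10.4% of all genes). The higher ones included the amino acid synthesis genes CBS (1.68), PSAT1 (0.99), PSPH (0.96) and ASNS (0.74), and the lower ones the regulators DDIT3 (-1.09), ATF3 (-0.83) and PPP1R15A (-0.77). CBS, the first enzyme of transsulfuration, was 42.2 and 31.2 against 40.5 and 28.5 FPKM in H596 and 6.58 and 4.43 against 20.6 and 16.1 FPKM in H2009 (difference SE 0.10, limma adjusted p = 0.00663). DDIT3, which encodes CHOP, was 26.6 and 21.6 against 21.8 and 18.7 FPKM in H596 and 45.5 and 30.3 against 17.6 and 11.3 FPKM in H2009 (SE 0.09, adjusted p = 0.00713). In H2009, CBS, PSAT1 and PSPH fell while DDIT3, ATF3 and PPP1R15A rose, so genes of 1 list moved in opposite directions in that line.

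Of 26 endoplasmic reticulum chaperone genes, 4 were higher and 3 lower (15.4% and 11.5%, near the 17.4% and 10.4% of all genes). The lectin chaperone CALR was 595 and 380.2 against 526 and 326 FPKM in H596 and 278 and 111 against 444 and 246 FPKM in H2009 (difference 1.11, SE 0.17, limma adjusted p = 0.0122), and HSPA5 (BiP) had a difference of 0.81 (adjusted p = 0.00978). XBP1, the transcription factor of the unfolded protein response, had effects of 0.28 and 0.31 in H596 and fell in H2009 (effects -0.44 and -0.59) (difference 0.81, adjusted p = 0.00819). Of 33 cytosolic heat shock genes, 5 were higher (15.2%, below the 17.4% of all genes) and 0 lower (6 and 3 after quantile normalization), among them the cochaperones BAG2 (0.78) and FKBP4 (0.76) and the constitutive HSP70 gene HSPA8 (0.62). All 3 fell in H2009, and HSPA8 has pseudogene copies that could share its reads. Of 30 cholesterol synthesis genes, 6 were higher and 2 lower (20% and 6.67%, beside 17.4% and 10.4% of all genes). INSIG1, which retains the SREBP machinery in the endoplasmic reticulum, fell in both lines, with mean effects of -1.13 in H596 and -1.80 in H2009 (difference 0.66, adjusted p = 0.0113), and the sterol desaturase gene SC5D was lower (-0.71, adjusted p = 0.0117) while ACAT2 was higher (0.99, adjusted p = 0.00761).

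Some immediate early genes had a lower effect in H596. Of 24 tested AP-1 and immediate early genes, 10 had a lower effect in H596 (41.7%, beside 10.4% of all genes), 1 a higher one (4.17%, beside 17.4%) and 13 did not pass, with a median difference of -0.30. In H2009, 13 of the 24 rose and 3 fell (21% and 34.9% of all genes), and in H596, 1 rose and 3 fell (2.59% and 5.04%). PHLDA1 was 27.2 and 29.2 against 26.6 and 27.8 FPKM in H596 and 57.7 and 46.7 against 20.3 and 12.2 FPKM in H2009 (difference -1.61, SE 0.14, limma adjusted p = 0.00713). FOSL1, the AP-1 subunit FRA1, had effects of -0.29 and -0.16 in H596 and rose by 0.86 and 0.73 in H2009 (difference -1.02, SE 0.10, adjusted p = 0.00741), and the ERK phosphatase DUSP6, itself an ERK-induced gene, had a difference of -0.99 (adjusted p = 0.00761). KLF6, a zinc finger factor, was the higher one (0.57, adjusted p = 0.0151). Without H596 replicate 1 or 2, 2 members were lower in either case.

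Of 25 p53 target genes, 3 were higher and 3 lower (12% each, beside 17.4% and 10.4% of all genes). CDKN1A, the cell cycle inhibitor p21, was 104.5 and 55.5 against 93.5 and 48.9 FPKM in H596 and 10.2 and 4.10 against 2.76 and 1.33 FPKM in H2009. It rose in H2009 by 1.58 and 1.13 and had effects of 0.16 and 0.18 in H596 (difference -1.19, SE 0.16, limma adjusted p = 0.00996). GADD45A (-0.85) and PLK3 (-0.68) had the same direction, whereas the death receptor FAS (1.05), the repair factor DDB2 (0.58) and XPC (0.38) were higher in H596. In the BCL2 family, 2 of 12 genes were higher (16.7%, near the 17.4% of all genes) and 0 lower, the survival genes BCL2L2 (0.95, adjusted p = 0.00761) and BCL2L1 (0.64, adjusted p = 0.0473). With a pseudocount of 0.1, without a variance trend or at 5 FPKM, 1 member was higher. BCL2L2 was 12.3 and 8.64 against 15.9 and 10.6 FPKM in H596 and 6.49 and 4.35 against 16.2 and 12.4 FPKM in H2009.

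Genes of YAP signalling and of the matrix held members with large differences in both directions. Of 21 YAP and TEAD targets, 5 were higher and 3 lower (23.8% and 14.3%, beside 17.4% and 10.4% of all genes), but 4 and 5 with centred effects and 5 and 6 after quantile normalization. ANKRD1, an ankyrin-repeat protein, was 7.05 and 9.96 against 5.44 and 8.42 FPKM in H596 and 2.35 and 2.55 against 18.2 and 15.96 FPKM in H2009. It fell in H2009 (effects -2.51 and -2.25), and its difference of 2.66 (SE 0.12, limma adjusted p = 0.00569) was the highest among the genes ranked here. NT5E, the ecto-nucleotidase CD73, was 33.5 and 43.2 against 30.2 and 45.0 FPKM in H596 and 289 and 235 against 100.2 and 76.5 FPKM in H2009 (difference -1.52, SE 0.10, adjusted p = 0.00663). CTGF, another classic YAP target, did not pass (difference -0.31, adjusted p = 0.132), and F3, the tissue factor gene, was higher (1.02, adjusted p = 0.00713).

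Of 23 matrix and mesenchymal genes, 8 were higher and 6 lower (34.8% and 26.1%, beside 17.4% and 10.4% of all genes), but 6 and 8 with centred effects or quantile normalization. MMP14, a membrane-bound collagenase, was 37.3 and 17.5 against 36.2 and 16.6 FPKM in H596 and 8.53 and 3.18 against 1.94 and 0.75 FPKM in H2009 (difference -1.42, SE 0.16, limma adjusted p = 0.00802). The fibronectin receptor subunit ITGA5 rose in both lines, with mean effects of 0.62 in H596 and 1.58 in H2009 (difference -0.96, adjusted p = 0.00815). TGFBR2, a receptor for TGF-beta, fell in H2009 (effects -1.12 and -1.44) with effects of -0.23 and -0.37 in H596 (difference 0.98, adjusted p = 0.0108). CD44 (0.85) and vimentin (VIM, 0.68) were also higher in H596.

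Protein synthesis and degradation genes differed by small amounts. Of 78 ribosomal protein genes, whose processed pseudogenes can share their reads, 13 were lower in H596 (16.7%, beside 10.4% of all genes) and 0 higher (beside 17.4%), with a median difference of -0.10. RPS15 was 1566 and 1144 against 1831 and 1743 FPKM in H596 and 992 and 977 against 659 and 858 FPKM in H2009 (difference -0.81, SE 0.19, limma adjusted p = 0.0344). Both of its H596 effects were below 0 and both H2009 effects above 0. Without H596 replicate 1, or without replicate 2, no ribosomal protein gene passed, while without H2009 replicate 1, 14 were higher and 28 lower and without replicate 2, 2 and 38. Of 35 proteasome subunits, 3 were higher, among them PSMD13 (0.41) and PSMC5 (0.41), and 2 lower (8.57% and 5.71%, below the shares of all genes).

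Other genes with the highest differences, outside the lists, were SAMHD1, OARD1, PEG10 and ZFP36L2. SAMHD1, which hydrolyses dNTPs, was 34.6 and 32.3 against 22.9 and 22.8 FPKM in H596 and 12.2 and 11.6 against 28.7 and 28.4 FPKM in H2009. It rose in H596 by 0.58 and 0.49 and fell in H2009 (effects -1.17 and -1.22) (difference 1.73, SE 0.09, limma adjusted p = 0.00663). PEG10, a retrotransposon-derived imprinted gene, rose in H596 and fell in H2009 too (difference 1.56, adjusted p = 0.00663). OARD1, an ADP-ribose hydrolase (1.59, adjusted p = 0.00699), and ZFP36L2, which promotes mRNA decay (1.51, adjusted p = 0.00663), fell in H2009 with effects from -0.02 to 0.14 in H596. Among the lowest were the decoy TRAIL receptor TNFRSF10D, at 7.43 and 6.65 against 7.03 and 6.91 FPKM in H596 and 23.2 and 20.1 against 6.97 and 6.16 FPKM in H2009 (difference -1.57, adjusted p = 0.00663), UBALD2 (-1.79, adjusted p = 0.00713) and the readthrough gene NME1-NME2 (-2.12, adjusted p = 0.00904). The last overlaps NME1 and NME2, so its reads are uncertain.

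**Figure D4:**
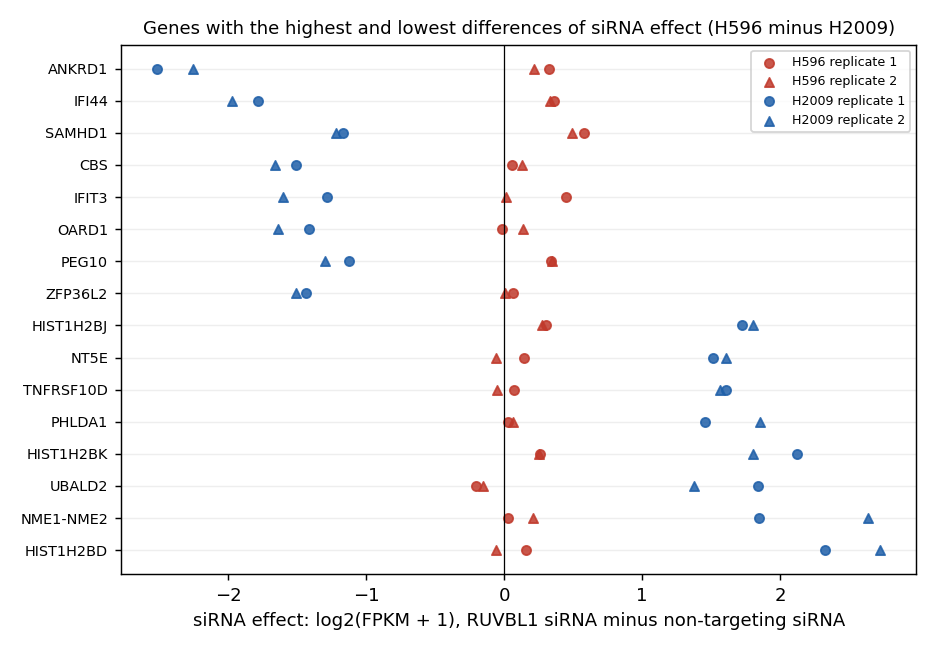
siRNA effect (log2) in each replicate for the 8 genes with the highest and the 8 with the lowest differences among those that passed, did not overlap between lines and had a mean of at least 5 FPKM in each table. The H2009 points (blue) lie beyond 1 in either direction for all 16 genes, while the H596 points (red) stay within 0.58 of 0.

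Compound B, known here only by that name, gave a second readout of the lines, at 100 nM for 24 h against untreated cells, in libraries that the siRNA comparison does not use. The difference of its effects was higher in H596 for 996 of 10674 genes tested with limma (9.33%) and lower for 1106 (10.4%). Over 10078 genes tested in both, the siRNA difference and the compound B difference had r = 0.449 across genes, which are not independent. Without the replicate block 0 genes passed for compound B (783 at an unadjusted p under 0.05).

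Histone, immediate early and some interferon-stimulated genes had the same direction with compound B, while several other lists did not. Over all genes tested with compound B, 9.33% were higher and 10.4% lower. Of the 13 histone genes, 8 were lower and 0 higher with compound B (median difference -1.31), and of 23 immediate early genes 10 were lower and 1 higher (median -0.40). Of the 34 interferon-stimulated genes, 10 were higher and 1 lower (median 0.29), among them IFI44 (1.89, adjusted p = 2.73e-07) and IFIT3 (1.79, adjusted p = 3.76e-07). IFI6 did not follow, with a compound B difference of -0.06 (limma adjusted p = 0.851) beside 2.28 for the siRNA. Its level in untreated cells was low, at 4.72 and 1.45 FPKM in H596 and 6.93 and 4.32 FPKM in H2009. In the separate siRNA table, H596 cells with the non-targeting siRNA had 119 and 48.8 FPKM. The tables were made separately, so these control levels cannot be compared directly. Why IFI6 did not follow was not tested. Of 54 replication genes 12 were higher and 3 lower, and of 35 nucleotide synthesis genes 5 and 0. Mitosis genes had 3 higher and 3 lower, with a median of -0.00, beside -0.35 for the siRNA. Of 14 NF-kappa B genes 0 were higher and 7 lower (median -0.48, beside 0.19 for the siRNA). Endoplasmic reticulum chaperones had 0 higher and 8 lower of 25 (median -0.31, beside 0.04). Cholesterol synthesis genes had 1 and 11 of 30 (median -0.38, beside 0.05), and matrix genes 0 and 6 of 18 (median -0.37, beside 0.05). SOD2 went in opposite directions, 0.77 with the siRNA and -1.13 with compound B (adjusted p = 0.000237), and CDKN1A was lower with both (-1.88 with compound B, adjusted p = 2.73e-07).

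**Figure D5:**
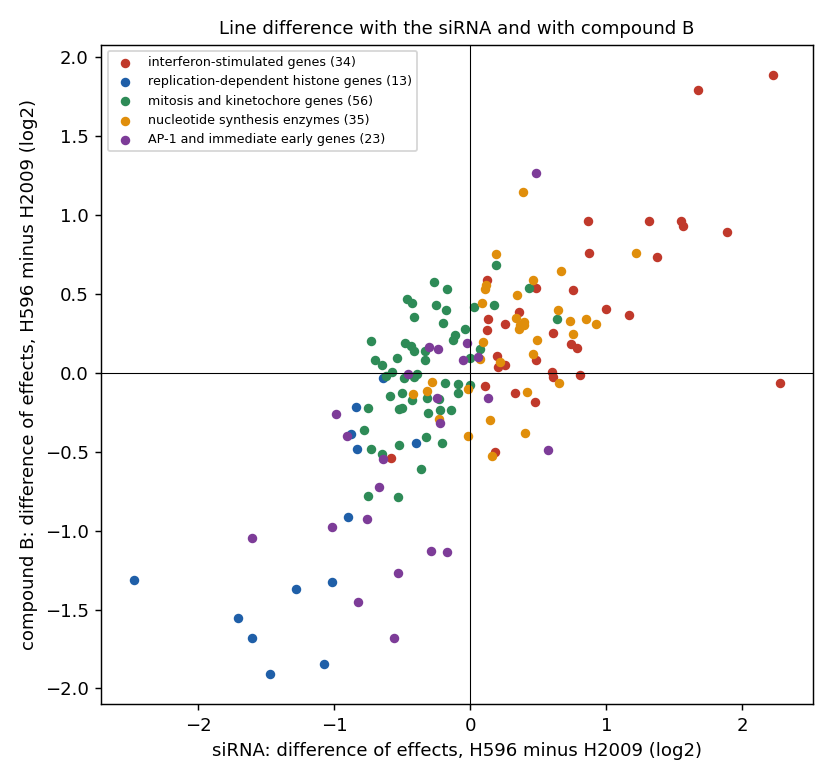
Difference of effects, H596 minus H2009 (log2), with the siRNA (horizontal) and with compound B (vertical) for members of 5 gene lists tested in both. Histone genes (blue) lie at the lower left, and mitosis genes (green) lie mostly left of 0 with compound B values on both sides of 0.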

How the data were processed

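RNA of 8 siRNA samples of H596 and H2009 cells was used. The values are FPKM per gene as deposited by the authors in 1 table per line, made, per the submitters' processing notes, on hg19 with the tools Cufflinks 2.2.1, TopHat2 2.0.12 and CASAVA 1.8.2, from stranded mRNA libraries per the labels' protocols. FPKM tables give no read depth, so the depth is unknown. Of 12384 entries for H596 and 12087 for H2009, 19 names in the latter had turned into dates and were left out.

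Effects were computed per line and replicate number on log2(FPKM + 1) and tested with limma 3.58.1 in R 4.3.3 (2 effects per line, a trend on mean expression, 2 residual degrees of freedom, Benjamini-Hochberg adjustment at 0.05 over all 10323 genes, two-sided). Both lines share 1 estimate of the spread, although the median SD between replicate effects was 0.0433 in H596 and 0.124 in H2009. "Rose" and "fell" in a line refer to the test of that line's mean effect in this fit. Compound B was fitted the same way in its own table of 13481 genes. The fit was also run on simulated data, whose outcome is not given here. Genes named are RUVBL1, RUVBL2, the 8 highest and 8 lowest differences among passing genes that do not overlap and reach 5 FPKM, and up to 2 passing members of each of 23 lists; other list members named were chosen after their values were seen. No gene met a further part of that rule, opposite effects of 0.58. Of the genes that this rule or the lists take, 2 are not reported here by name. The members and lists were chosen with earlier results of these data known. Alternatives are under the closing section, and the cDNA sequencing and compound C samples were not used here.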

Additional observations from a re-analysis of the deposited data

Results flagged for a closer look

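The effects of the same siRNA differed between the 2 lines by the test of the difference (limma, adjusted p under 0.05) for these named genes, given as the difference in log2 effect, H596 minus H2009. None of them passes without the replicate block.

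Genes with a higher effect in H596 were ANKRD1 (2.66), IFI6 (2.28), IFI44 (2.22), SAMHD1 (1.73), CBS (1.68), IFIT3 (1.67), OARD1 (1.59), PEG10 (1.56) and ZFP36L2 (1.51). Among replication, nucleotide and survival genes they were CTPS1 (1.22), CDC45 (1.00), CHAF1B (0.95), RRM2 (0.92), BCL2L2 (0.95) and BCL2L1 (0.64). Stress, sterol and receptor genes were CALR (1.11), XBP1 (0.81), FAS (1.05), ACAT2 (0.99), TGFBR2 (0.98), BAG2 (0.78), FKBP4 (0.76) and SOD2 (0.77). The rest were IRF2 (0.83), IKBKE (0.69), YEATS4 (0.90), PIH1D1 (0.73), UTP6 (0.61), SMG9 (0.52), MLST8 (0.44), PSMD13 (0.41) and PSMC5 (0.41).

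Genes with a lower effect in H596 were HIST1H2BD (-2.48), NME1-NME2 (-2.12), UBALD2 (-1.79), HIST1H2BK (-1.71), PHLDA1 (-1.61), TNFRSF10D (-1.57), NT5E (-1.52), HIST1H2BJ (-1.48) and MMP14 (-1.42). Regulators were CDKN1A (-1.19), DDIT3 (-1.09), FOSL1 (-1.02), H2AFX (-0.96), IER3 (-0.91), CDCA5 (-0.78) and CENPF (-0.75). The rest were RPS15 (-0.81), SC5D (-0.71), PDRG1 (-0.67), AAR2 (-0.66), PRPF6 (-0.63) and ZNHIT3 (-0.63).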

How the results depend on the processing

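The main counts were 1797 higher and 1078 lower. The fits without a replicate block, with 1 replicate block shared by both lines, and without a block on libraries centred on their medians (chosen after seeing the data, 227 unadjusted) each called 0 and 0. The replicate 1 minus replicate 2 deviations correlated across genes with r = 0.978 between the groups of H596, 0.941 in H2009 and 0.715 to 0.815 between lines. There are only 2 numbers, and what they mark was not tested. A threshold of 5 FPKM left 1184 higher of 6962 tested genes, a test against a log2 difference of 0.5 left 26 and 7, quantile normalization gave 1953 lower and centred effects 1808 lower. Leaving out 1 replicate gave 79 to 4143 higher and 24 to 3134 lower. With a spread of its own for each line (also chosen later) H596 had 1972 genes up and 3115 down in place of 267 and 520. H2009 then had 1549 up and 2780 down in place of 2172 and 3602, fewer than H596. Compound B calls went from 2102 to 0 without the replicate block. The sign of RUVBL1 turned to 0.0916 with a pseudocount of 0.1. Of 57 named genes, 55 no longer passed without the replicate block, 32 and 33 without H596 replicates 1 and 2, and 41 against 0.5; no other named gene changed sign. The cause of these shifts was not tested, beyond the fewer genes or replicates each uses. FPKM without depth leaves counting error unknown.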

Other observations

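Of 9 epithelial markers, 2 had a higher and 1 a lower effect in H596, and 6 did not pass. These shares of 22.2% and 11.1% were near the 17.4% and 10.4% of all genes. Only 3 of 12 squamous markers were tested, of which 1 was higher and 2 did not pass. Of 10 lung lineage markers 0 were tested. SOX2, a squamous and stem cell transcription factor, was 68.0 and 54.9 FPKM with the RUVBL1 siRNA against 67.5 and 51.4 FPKM in H596, and 9.91 and 4.13 against 22.8 and 13.9 FPKM in H2009. It fell in H2009 (effects -1.13 and -1.54), and its difference was 1.38 (SE 0.15, limma adjusted p = 0.00762). MUC1, an epithelial mucin, had effects of 0.19 and 0.27 in H596 and fell in H2009 (effects -0.97 and -1.29) (difference 1.36, SE 0.13, adjusted p = 0.00741). KRT18, a keratin of simple epithelia, went the other way at -0.60 (adjusted p = 0.0155), falling in H596. These 3 genes were chosen after their values were seen, and none passes without the replicate block.

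RNU12, a small nuclear RNA, had the lowest difference of all tested genes at -5.25 (limma adjusted p = 0.0212), outside the rule for naming genes. It was listed at 0 in several libraries, with effects of -3.38 and -3.71 in H596 and 3.41 and 0 in H2009.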
